A study of Homo sapiens with 3 samples.

Results

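The miR-532 cluster is a run of 8 miRNA hairpins (MIR532, MIR188, MIR500A, MIR362, MIR501, MIR500B, MIR660 and MIR502) inside CLCN5, the X-linked gene for an endosomal chloride/proton exchanger. Its members were taken by name, as every listed form of hsa-miR-188, hsa-miR-362, hsa-miR-500a, hsa-miR-500b, hsa-miR-501, hsa-miR-502, hsa-miR-532 and hsa-miR-660. This gave 15 of the 1921 listed miRNA names, and all 15 had at least 1 count among the 877 names detected in any library. The cluster itself was chosen by the levels of hsa-miR-532-5p and hsa-miR-532-3p in these same libraries, so the values below are a description and no test was made on them.

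The libraries hold the small RNAs of 3 strains of the established liver cancer line HCCLM3, grown in DMEM as cultures for which no treatment is named. The library named parent carries the label low metastasis, subclone1 is labelled for metastasis directed to the lung, and subclone2 for metastasis to lung as well as celiac lymph node. According to the study's methods its clones were grown from single cells of metastases that a red fluorescent derivative of HCCLM3 formed in nude mice, so that a subclone would stand for a single clone. The same methods describe that derivative, the parental line of the study, as highly metastatic, unlike the label of the parent library. The labels do not tie either subclone to a named clone, nor do they mention the fluorescent protein. Each strain had 1 library, with 7902438 counts in parent, 3570864 in subclone1 and 4568075 in subclone2, so no difference between strains has a replicate check, and in a bulk library a lower level per cell cannot be told apart from fewer cells that express a miRNA. Among miRNAs that mark cell types, hsa-miR-122-5p, the defining miRNA of hepatocytes, was low with 6.71, 5.32 and 3.94 CPM (counts per 1e+06 counts of the same library) in parent, subclone1 and subclone2. hsa-miR-192-5p and hsa-miR-194-5p, which mark liver as well as gut epithelium, were higher in both subclones, at 18528, 60246 and 69068 CPM and at 108, 271 and 263 CPM, and their part in the results was not tested. A further 11 names that mark blood, endothelium or stroma had between 0 and 8 counts each.

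A miRNA hairpin is cut into a short duplex, of which usually 1 strand, from the 5p or the 3p arm, stays bound to an Argonaute protein and guides it to matching mRNAs while the other is lost. The bases 2 to 8 of the bound strand, called the seed, do most of the target recognition, and the arms of the same hairpin therefore act on different mRNAs. Hairpins in an intron are usually transcribed with their host gene, and members of this cluster, among them miR-362, miR-500a and miR-501, have been studied in liver and other cancers.

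In the GENCODE release 29 annotation (GRCh38) the hairpins lie on the plus strand of chromosome X between 50003148 and 50014683, a stretch of 11536 bases. CLCN5 runs from 49922615 to 50099235 on the same strand. None of the hairpins overlaps an annotated exon. The nearest CLCN5 exons end 77834 bases before the cluster and begin 27633 bases after it. Of 9 annotated CLCN5 transcripts, 3 span all hairpins and the other 6 start downstream of them. MIR532 (50003148 to 50003238) comes first, followed after 264 bases by MIR188 (50003503 to 50003588). A gap of 4842 bases separates these from MIR500A, MIR362, MIR501 and MIR500B, and MIR660 and MIR502 close the cluster.

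The arms of MIR532 are shown first, because the results turn on the division of counts between them. The RefSeq hairpin sequence (GRCh38.p14, chrX:50003148-50003238, plus strand) is given with both mature arms in capitals, the 5p arm first.

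MIR532: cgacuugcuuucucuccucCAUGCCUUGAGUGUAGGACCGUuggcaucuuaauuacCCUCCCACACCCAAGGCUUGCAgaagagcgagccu

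The mature sequences of the better expressed members, from the same source, are given with the seed in capitals.
hsa-miR-532-5p: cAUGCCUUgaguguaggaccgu
hsa-miR-532-3p: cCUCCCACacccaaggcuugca
hsa-miR-501-3p: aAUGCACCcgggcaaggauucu
hsa-miR-502-3p: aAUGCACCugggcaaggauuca
hsa-miR-500a-3p: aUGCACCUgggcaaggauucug
hsa-miR-362-5p: aAUCCUUGgaaccuaggugugagu
hsa-miR-362-3p: aACACACCuauucaaggauuca
RefSeq gave a mature sequence for 13 of the 15 names. The seed of hsa-miR-532-5p and that of hsa-miR-532-3p each occurred in 1 human mature miRNA, that is, in themselves alone. hsa-miR-501-3p and hsa-miR-502-3p shared the seed AUGCACC. The longest run of bases that either arm of miR-532 shared with any other human mature miRNA was 9.

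Other members are harder to tell apart. hsa-miR-500a-3p and hsa-miR-502-3p share 20 consecutive bases, shown here in capitals.
hsa-miR-500a-3p: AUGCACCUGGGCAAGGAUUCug
hsa-miR-502-3p: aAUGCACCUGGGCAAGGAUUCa
Their counts were 1599 and 1607 in parent, 937 and 942 in subclone1, and 839 and 852 in subclone2. These differences of 8, 5 and 13 counts lie well under the standard deviation of a difference between independent counts of that size (56.6, 43.3 and 41.1). hsa-miR-500b, listed without an arm, had the same counts as hsa-miR-500a-5p in every library (7, 4 and 1). The pairs are therefore treated as 1 measurement each, and how reads that match several names were counted is not given in the sources used here.

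With each such pair counted once, the cluster held 3311 counts in parent, 1714 in subclone1 and 1592 in subclone2. This equals 419 CPM (95% interval 405 to 434), 480 CPM (458 to 503.3) and 349 CPM (332 to 366), where intervals are exact binomial and cover counting error only. On the library totals the cluster was thus highest in subclone1 and lowest in subclone2. Against parent the log2 ratio was 0.20 for subclone1 (interval 0.11 to 0.28). For subclone2 it was -0.27 against parent (-0.35 to -0.18) and -0.46 against subclone1. With all 15 names added up, the sums were 623, 745 and 535 CPM and the log2 ratios 0.26, -0.22 and -0.48. Scaling by TMM factors, which set aside the most strongly changed miRNAs, moved the last pair to -0.049 (interval -0.12 to 0.02) and -0.24. For the sum of all 15 names the order of parent and subclone2 is therefore not settled. The sum with each pair counted once was not rescaled in this way.

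**Figure D1:**
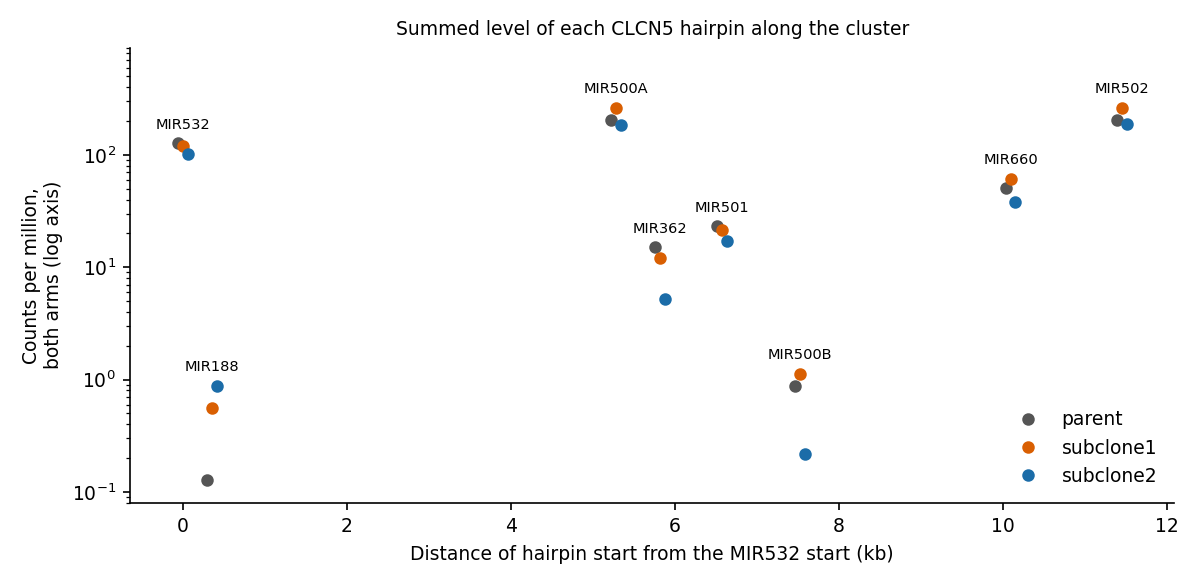
Summed CPM of both arms of each hairpin, or of the 1 listed name for MIR500B (log axis), against the distance of its start from the start of MIR532 in kb. Points of the 3 libraries are shifted sideways for visibility. MIR532, MIR500A, MIR660 and MIR502 stand above 30 CPM in each library, whereas MIR188 stays under 1 CPM next to MIR532, which is far higher. The points of MIR500A and MIR502 rest almost wholly on hsa-miR-500a-3p and hsa-miR-502-3p, which are treated as 1 measurement. MIR500B is near 1 CPM or under it, but its 3p arm is not among the listed names. Its counts equal those of hsa-miR-500a-5p.

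Levels differed widely along the cluster. The neighbours MIR532 and MIR188, 264 bases apart, had 127 and 0.127 CPM in parent, 120 and 0.560 CPM in subclone1, and 103 and 0.876 CPM in subclone2. For MIR188 this rested on 1, 2 and 4 counts, and a library with a count of 0 for a name would still allow 0.380, 0.840 and 0.657 CPM (3 counts of the total). No difference in miR-188 was detectable at this depth. Comparisons of level between miRNAs also carry the preference of the ligation step for some RNA ends, whereas ratios of 1 miRNA between libraries compare like with like.

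hsa-miR-532-5p, the main product of the first hairpin, had 924 counts in parent, 360 in subclone1 and 369 in subclone2. Its level was 117 CPM in parent (110 to 125), 101 CPM in subclone1 (90.7 to 112) and 80.8 CPM in subclone2 (72.7 to 89.5). It was highest in parent and, scaled to the library total, lowest in subclone2, and the intervals of parent and subclone1 overlap slightly. Against parent its log2 ratio was -0.21 for subclone1 (interval -0.39 to -0.04), and for subclone2 -0.53 (-0.71 to -0.36), while subclone2 against subclone1 gave -0.32 (-0.53 to -0.11). The sign was the same under the 3 other scalings. Between the subclones, however, the interval included 0 under each of them, as with TMM factors (-0.087, -0.30 to 0.13), so the order of the subclones is not settled.

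hsa-miR-532-3p, the minor product of the same hairpin, differed between the libraries in the other direction. It had 76 counts in parent, 70 in subclone1 and 101 in subclone2, although parent was by far the deepest library. Its level was 9.62 CPM in parent (7.58 to 12.0), 19.6 CPM in subclone1 (15.3 to 24.8) and 22.1 CPM in subclone2 (18.01 to 26.9). Both subclones were above parent with intervals that do not overlap its own, whereas the intervals of the subclones overlap each other. Against parent the log2 ratio was 1.03 for subclone1 (interval 0.54 to 1.52), and for subclone2 1.20 (0.76 to 1.65), while subclone2 against subclone1 gave 0.17 (-0.28 to 0.63).

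**Figure D2:**
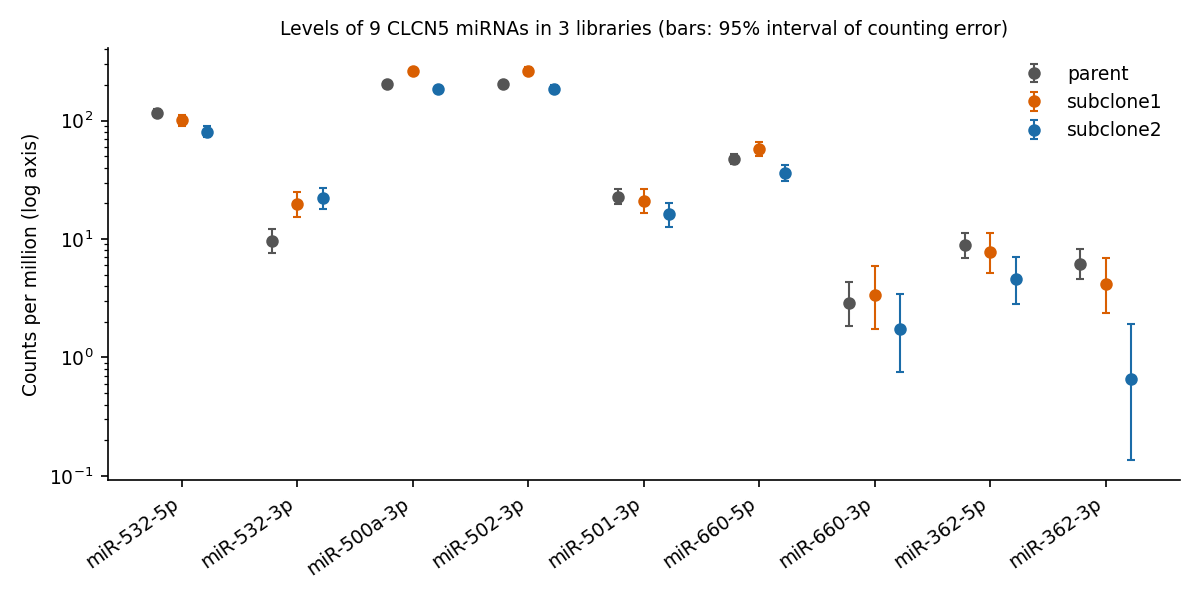
CPM (log axis) of the 9 better expressed members in parent, subclone1 and subclone2, with bars for the 95% interval of counting error. hsa-miR-532-3p is lowest in parent at 9.62 CPM, while hsa-miR-532-5p is highest there at 117 CPM, and hsa-miR-362-3p is at 0.657 CPM in subclone2.

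To set these ratios beside the other miRNAs, names averaging 10 CPM or more in a comparison were kept. A kept name was called if its level differed by a factor of 2 or more and the 95% interval of that ratio excluded equality. For subclone1 against parent 13.0% of the kept miRNAs were called, for subclone2 against parent 10.7% of 187, and for subclone2 against subclone1 5.76% of 191. The cluster had 6 kept names, which are 5 measurements, and of these 1, hsa-miR-532-3p, was called higher in each comparison with parent and 0 between the subclones. Its level in parent lay below 10 CPM, so it passed the minimum through the subclones, and with no minimum it was called as well. From the top, hsa-miR-532-3p stood in place 18 in subclone1 and place 9 in subclone2, and hsa-miR-532-5p in place 132 and 148. The call in subclone1 sat at the threshold and was lost under the 3 other scalings (log2 ratio 0.96 to 0.97). In subclone2 it was kept under each of them (1.27 to 1.37). Both comparisons use the same parent library, so they are not independent of each other.

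**Figure D3:**
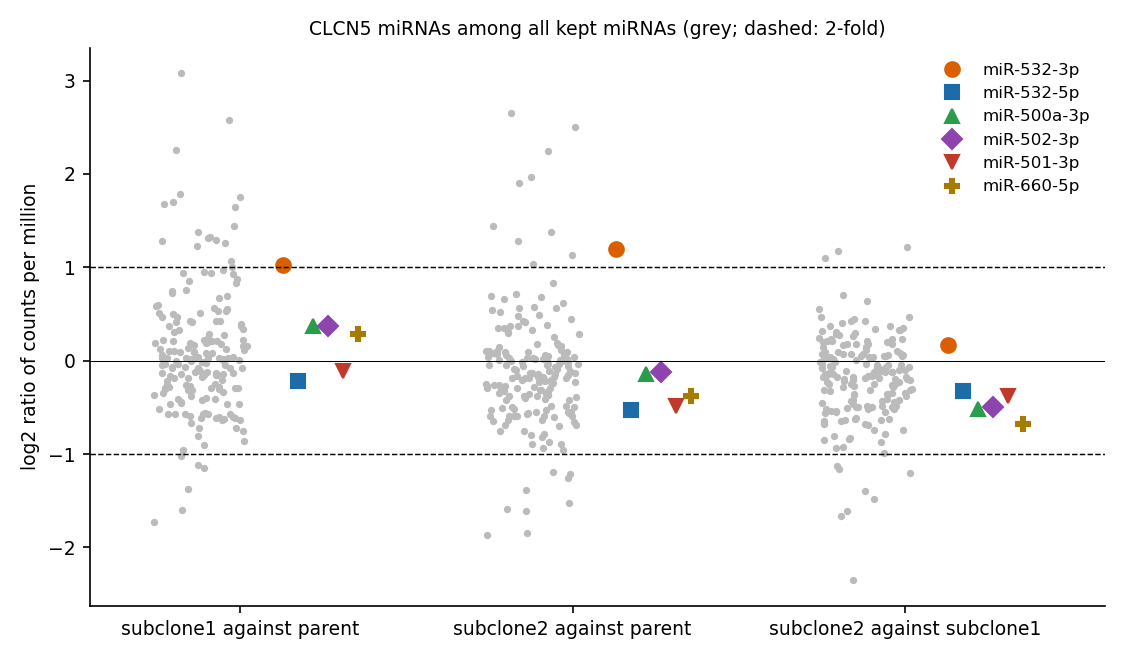
Log2 ratio of CPM in each comparison for every kept miRNA (grey points) and the 6 kept members (coloured), with dashed lines at 2-fold. hsa-miR-532-3p lies above the upper line in both comparisons with parent (1.03 and 1.20), and the other members lie between the lines throughout.

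The division between the arms needs no scaling between libraries, since both arms were counted in the same library. Of all miR-532 counts, the 3p arm held 76 of 1000 in parent, 70 of 430 in subclone1 and 101 of 470 in subclone2. This is 7.60% (6.03 to 9.42), 16.3% (12.9 to 20.1) and 21.5% (17.9 to 25.5), and the 5p share was accordingly 92.4%, 83.7% and 78.5%. Parent is set apart from both subclones by its interval, while the intervals of the subclones overlap. The ratio of 3p to 5p counts was 2.36-fold higher in subclone1 than in parent (1.64 to 3.39) and 3.32-fold higher in subclone2 (2.38 to 4.65). Between the subclones the interval of this ratio, 0.991 to 2.01, included equality. The summed level of the hairpin was 127 CPM in parent, 120 CPM in subclone1 and 103 CPM in subclone2.

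**Figure D4:**
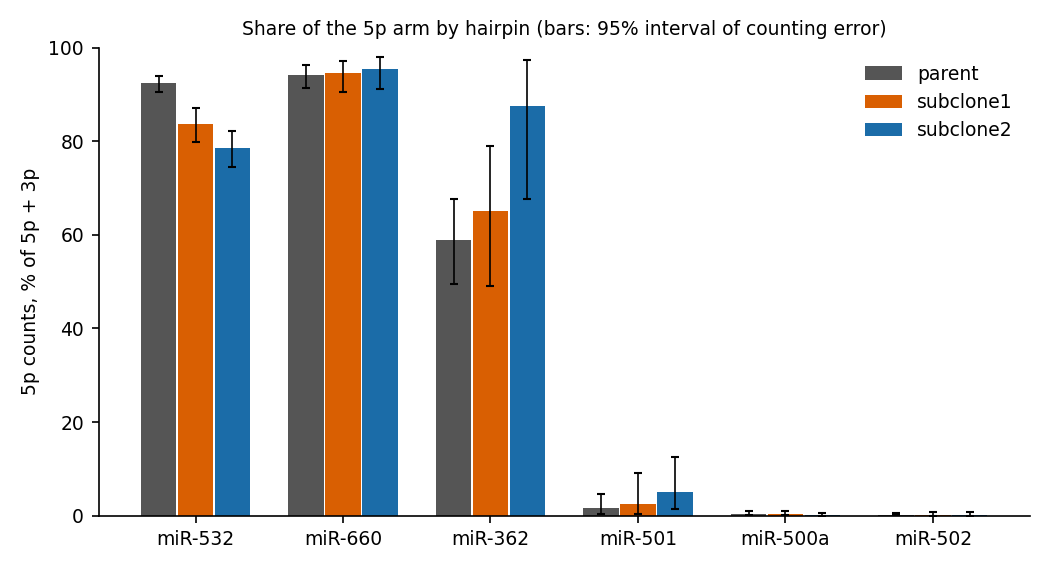
Share of the 5p arm in the counts of both arms (percent) for 6 hairpins in parent, subclone1 and subclone2, with bars for the 95% interval of counting error. The 5p share of miR-532 steps down from 92.4% to 83.7% and 78.5%, that of miR-660 stays between 94.2% and 95.4%, and that of miR-362 is 58.8%, 65.1% and 87.5%.

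The same ratio was compared across all hairpins listed with both a 5p and a 3p name and at least 30 counts for each arm over the libraries compared, a comparison added after the values of miR-532 had been seen. For subclone1 against parent 9.23% of 65 hairpins changed their 3p to 5p ratio at least 2-fold with an interval excluding equality, for subclone2 against parent 12.5% of 64, and for subclone2 against subclone1 8.51% of 47. The median log2 shift was 0.07, -0.02 and 0.03 in these comparisons. miR-532, with shifts of 1.24 (0.72 to 1.76) and 1.73 (1.25 to 2.22), held place 2 of 65 and place 1 of 64 among shifts toward the 3p arm. In subclone2 against subclone1 its shift of 0.49 (-0.01 to 1.00) held place 14 of 47 and was not called.

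**Figure D5:**
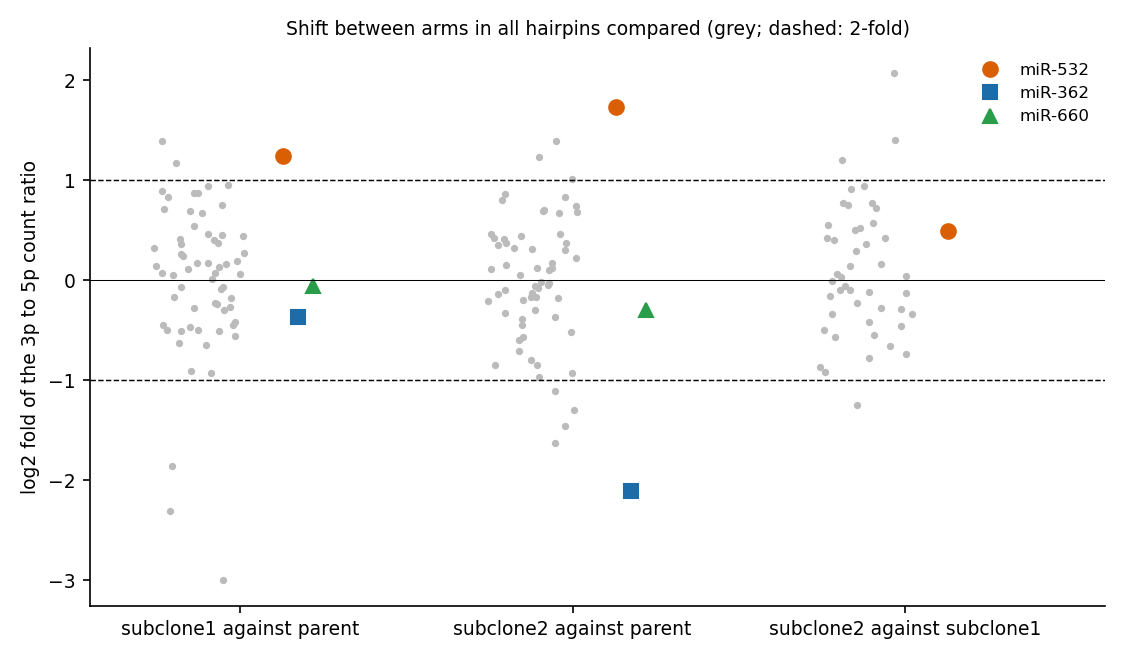
Log2 fold of the 3p to 5p count ratio in each comparison for every hairpin compared (grey points) and for miR-532, miR-362 and miR-660 (coloured), with dashed lines at 2-fold. miR-532 is at 1.24 and 1.73 against parent, and miR-362 is the lowest of all hairpins in subclone2 against parent at -2.11.

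miR-362 shifted toward its 5p arm instead. Its hairpin sequence (RefSeq, GRCh38.p14, chrX:50008964-50009028, plus strand) is given with the arms in capitals.

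MIR362: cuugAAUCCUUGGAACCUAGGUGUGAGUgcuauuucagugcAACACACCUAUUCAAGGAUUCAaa

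hsa-miR-362-5p had 70 counts in parent, 28 in subclone1 and 21 in subclone2, or 8.86, 7.84 and 4.60 CPM. hsa-miR-362-3p had 49, 15 and 3 counts, or 6.20, 4.20 and 0.657 CPM. Both arms were thus lowest in subclone2, and the 3p arm by more. For the hairpin as a whole the level was 15.1 CPM in parent (12.5 to 18.02), 12.0 CPM in subclone1 (8.71 to 16.2) and 5.25 CPM in subclone2 (3.37 to 7.82). The log2 ratio of subclone2 to parent was -1.50 (-2.22 to -0.88) and to subclone1 -1.18 (-1.98 to -0.44). For hsa-miR-362-3p the ratio of subclone2 to parent was 0.122 (0.0211 to 0.328), resting on 3 counts in subclone2 and with 0.5 counts added in each library. The 3p arm made up 41.2% of the miR-362 counts in parent (32.2 to 50.6), 34.9% in subclone1 (21.0 to 50.9), but 12.5% in subclone2 (2.66 to 32.4). The interval of subclone2 overlaps that of subclone1 and just touches that of parent. The log2 shift of the 3p to 5p ratio in subclone2 against parent, -2.11 (-4.74 to -0.42), was called, and that in subclone1, -0.37 (-1.55 to 0.74), was not. Neither arm reached the minimum of 10 CPM, and without a minimum hsa-miR-362-3p was called lower in subclone2 against both other libraries.

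hsa-miR-500a-3p, read together with hsa-miR-502-3p as 1 measurement, was the most abundant product of the cluster. It had 202 CPM in parent (193 to 213), 262 CPM in subclone1 (246 to 280) and 184 CPM in subclone2 (171 to 197). Subclone1 stood above both other libraries, whose intervals overlap slightly. The log2 ratio was 0.38 in subclone1 against parent (0.26 to 0.49) and -0.51 in subclone2 against subclone1 (-0.65 to -0.38). In subclone2 against parent it was -0.14 (-0.26 to -0.02), and this direction is not settled, since it turned to 0.03 with TMM factors and to 0.01 with median-of-ratios size factors. It held 48.3% of the cluster counts in parent, 54.7% in subclone1 and 52.7% in subclone2, with paired names counted once. The 5p arms of these hairpins were near the floor, with 7, 4 and 1 counts for hsa-miR-500a-5p and 4, 2 and 2 for hsa-miR-502-5p.

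hsa-miR-660-5p followed a similar order, with 375, 207 and 166 counts. Its level was 47.5 CPM in parent (42.8 to 52.5), 58.0 CPM in subclone1 (50.3 to 66.4) and 36.3 CPM in subclone2 (31.0 to 42.3). The log2 ratio of subclone2 to subclone1, -0.67 (-0.98 to -0.37), was the lowest of the 6 kept members in that comparison. Against parent the log2 ratios were 0.29 for subclone1 and -0.38 for subclone2. With TMM factors they were 0.23 and -0.21, and their intervals, shifted by as much, included equality. The 3p arm had 23, 12 and 8 counts, and the 5p share of 94.2%, 94.5% and 95.4% differed by less than the counting error.

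hsa-miR-501-3p had 180, 75 and 74 counts, or 22.8 CPM in parent (19.6 to 26.4), 21.0 CPM in subclone1 (16.5 to 26.3) and 16.2 CPM in subclone2 (12.7 to 20.3). Against parent its log2 ratio was -0.11 for subclone1 (interval -0.53 to 0.28), and for subclone2 -0.49 (-0.90 to -0.09). TMM or median-of-ratios scaling moved the latter to -0.32 or -0.34, and its interval by as much, so that it included equality. hsa-miR-501-5p had 3, 2 and 4 counts, which shows no difference at this depth.

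The members of the cluster differed among themselves. With hsa-miR-500a-3p and hsa-miR-502-3p counted as 1, there were 5 kept measurements. In subclone1 against parent 3 of these 5 had a log2 ratio above 0 and 2 below, from -0.21 for hsa-miR-532-5p to 1.03 for hsa-miR-532-3p, both from the same hairpin, and the median was 0.29 beside 0.02 for all kept miRNAs. In subclone2 against parent 4 of 5 were below 0 (3 of 5 with TMM or median-of-ratios scaling, since hsa-miR-500a-3p turns), with a median of -0.38 beside -0.15 for all kept miRNAs. Between the subclones 4 of 5 were below 0, with a median of -0.37 beside -0.17. TMM factors moved the median of all kept miRNAs by 0.17 and 0.23 in these comparisons.

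Other miRNAs of chromosome X were set beside the cluster through a list of 47 listed names. The list was drawn up by hand and was not checked to hold every miRNA of that chromosome. The counts below therefore describe these names, not the chromosome. In subclone1 against parent 12 of the 13 kept names were below 0, with a median of -0.29 beside 0.02 for all kept miRNAs. In subclone2 against parent 11 of 12 were (10 of 12 with TMM or median-of-ratios scaling), with a median of -0.63 beside -0.15. Of these names 0 were called in either comparison, beside 13.0% and 10.7% of all kept miRNAs. Some are arms of the same hairpin, such as hsa-miR-221-3p and hsa-miR-221-5p, and hsa-miR-421 was below 0 in subclone1 by only -0.001. Of the 12 kept between the subclones 9 were below 0 (median -0.22 beside -0.17 for all kept miRNAs), but only 6 under each other scaling. The most abundant were hsa-miR-222-3p, with log2 ratios of -0.60 and -0.95, hsa-miR-221-3p with -0.45 and -0.81, hsa-miR-221-5p with -0.72 and -0.80, and hsa-miR-98 with -0.12 and -0.13, the last of which turned to 0.045 with TMM factors. On the library totals hsa-miR-532-5p was below parent like these 4 in both comparisons, and hsa-miR-532-3p above it.

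Outside the cluster, the miRNAs nearest to hsa-miR-532-5p in their pair of log2 ratios against parent were sought among 87 names that averaged 100 CPM or more. hsa-miR-16-5p was nearest, at a Euclidean distance of 0.053, with 314, 262 and 221.3 CPM in parent, subclone1 and subclone2. hsa-miR-365a-5p followed at 0.12, with 160, 127 and 113 CPM, and hsa-miR-15b-5p at 0.13, with 129, 107 and 96.3 CPM. All 3 were, like hsa-miR-532-5p, highest in parent. They were also lowest in subclone2, but between the subclones hsa-miR-365a-5p and hsa-miR-15b-5p turned to 0.059 and 0.085 (log2) with TMM factors. Likeness over 3 libraries with a shared parent is a description of these libraries only.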

How the data were processed

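Libraries were made from Trizol-extracted total RNA (1 ug each) using Illumina's TruSeq reagents for small RNA. The authors deposited unscaled read counts per mature miRNA name, 1 library per strain. The submitters' processing notes name hg19 and CASAVA 1.4 without a role. Trimming, mismatch limit and miRBase release are not given in the sources used here. Positions and sequences are from GENCODE release 29 and RefSeq (GRCh38), not from the count tables.

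Counts were scaled to the library total. Log2 ratios used 0.5 added counts. Intervals are exact at 95% (Clopper-Pearson for shares, conditional for ratios of libraries and of arms, scipy 1.17.1) and cover counting error only. Reads amplified by PCR are not independent molecules, so the intervals may be too narrow even for counting error. No test between strains was possible with 1 library each. TMM factors came from edgeR 4.0.16. The functions were tested on simulated data. The cluster, lists and comparisons were chosen with earlier results of these data known. Named were all members, the 3 nearest miRNAs in pattern and the 4 most abundant names of the chromosome X list, from which 2 names without a match in the annotation were removed.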

Additional observations from a re-analysis of the deposited data

How the results depend on the processing

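No paired analysis was possible because each strain has 1 library, and for the same reason no library could be left out. Of 75 alternative values, 51 kept their call or, where none was made, lay within the interval or count range of the reported value. The label reversed (0 values) was open only to ratios and arm shifts that had been called. Among the 51 are the 5p shares of miR-532 rescaled to the depth of subclone1, which are the same counts and could hardly differ. The ratio of hsa-miR-500a-3p, whose sign turned in subclone2 against parent, is not among the 75. A reduced total left out the 10 most abundant miRNAs of each library, 12 names in all. For the sum of all names this total gave log2 ratios of 0.19 in subclone1 against parent, -0.15 in subclone2 against parent and -0.33 between the subclones. TMM and median-of-ratios scaling gave -0.049 and -0.072 in subclone2 against parent, and -0.24 and -0.26 between the subclones. Without hsa-miR-532-5p the sum in subclone1 against parent was 0.35. For hsa-miR-532-5p between the subclones these scalings gave -0.087 and -0.11. The log2 ratio of hsa-miR-532-3p in subclone1 against parent was 0.97 with TMM, 0.96 with median-of-ratios and 0.96 with the reduced total, so that 0 members were called there instead of 1. A minimum of 100 CPM left 0 members called against parent in either subclone, by construction, since hsa-miR-532-3p lies below it. With no minimum 2 of 15 members were called in subclone2 against parent, beside 75 of 827 names in all. Between the subclones 1 of 15 was called, beside 33 of 780, and there a threshold of 1.5-fold also called 1 (hsa-miR-660-5p). That threshold called 56, 50 and 36 of all kept miRNAs in the 3 comparisons, instead of 25, 20 and 11. With no minimum 67 of 825, 75 of 827 and 33 of 780 names were called, and with a minimum of 100 CPM 7 of 91, 5 of 87 and 2 of 90. With at least 100 counts per arm the hairpins called for a shift between arms were 3 of 36, 3 of 35 and 2 of 30 instead of 6, 8 and 4. Counting paired names once, the other scalings of hsa-miR-532-3p, the larger pseudocount for it and for the arm shift, and the minimum of 100 counts per arm were added after seeing the data.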
